A study of Mus musculus with 32 samples.

Results

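The genes described here are 42 enzymes and carriers of the urea cycle and of amino acid breakdown in mouse liver. They were chosen by gene symbol, as the rows of the deposited count tables for female and male mice that carry a listed symbol, and the rule uses no measured value. The list of symbols itself was drawn up with earlier results of these data known. All 42 were found in both tables, out of 41585 gene entries. After genes with low counts were removed, 41 of the 42 could be tested in each sex. Prodh, proline dehydrogenase, was listed at 0 counts in all 32 libraries and was not tested. The positions of all 42 were matched to RefSeq genes of the GRCm38.p6 build.

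The study asked whether a lack of Cyp2b enzymes changes diet-induced steatohepatitis. RNA was sequenced from the livers of C57BL/6 mice in 8 groups of 4 libraries, by sex (female or male), genotype and diet. The genotypes were wild type (WT) and Cyp2b-null, a CRISPR/Cas9 line without Cyp2b9, Cyp2b10 and Cyp2b13 on the same background. The WT mice were purchased, so mouse source and genotype cannot be told apart. Mice were 10 weeks old at the start and were fed for 8 weeks with normal chow (ND) or with a high-fat diet without choline, made with defined L-amino acids and low in methionine (CDAHFD). The CDAHFD supplies free amino acids in place of intact protein and comes from another supplier than the chow, so choline, methionine, fat and the form of the amino acids cannot be told apart as parts of the diet effect. The labels do not state which library came from which animal, and p-values measure only the spread between these libraries, which may be technical. Each whole liver sample mixes all liver cell types, and for every bulk value below fewer cells of a type and less RNA per cell cannot be told apart.

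The liver is the organ that turns ammonia into urea, and the urea cycle runs partly in the mitochondria and partly in the cytosol of hepatocytes, mainly those around the portal vein. The nitrogen it disposes of comes from amino acids, whose amino groups are removed by transaminases, dehydratases, deaminases and glutaminase. The carbon skeletons are then broken down along separate routes for tyrosine, tryptophan, histidine, lysine, glycine and the branched-chain amino acids, and much of this machinery is made in the liver at high levels.

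Library totals ranged from 2906411 to 10166959 gene counts, and a count of 3, taken as the floor of detection, was worth 0.247 to 1.17 CPM across libraries, for counting error only. CPM is the read count relative to library size, scaled with TMM factors within each sex unless stated. The targeted gene Cyp2b9 had 1371 to 3530 counts in ND-fed WT females and 2 to 8 in Cyp2b-null females. In males Cyp2b9 separated the genotypes on CDAHFD, with 118 to 364 counts for WT against 2 to 7 for the null mice. On ND, Cyp2b10 did so, with 33 to 97 against 1 to 9 counts. Replicate 3 of the CDAHFD-fed Cyp2b-null females and replicate 4 of the matching males are not among the labelled columns of the study's heat maps of genotype differences, and both are kept here.

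Bckdk, at chr7:127904073-127909664, was the member with the largest mean rise on CDAHFD over the 4 comparisons of diets, and the 250 bases before its start site are printed for that reason (chr7:127903823-127904072, plus strand, RefSeq, GRCm38.p6), 5′ to 3′, with a match to the TATA box letters TATAAA in capitals, read on the opposite strand.
Bckdk promoter: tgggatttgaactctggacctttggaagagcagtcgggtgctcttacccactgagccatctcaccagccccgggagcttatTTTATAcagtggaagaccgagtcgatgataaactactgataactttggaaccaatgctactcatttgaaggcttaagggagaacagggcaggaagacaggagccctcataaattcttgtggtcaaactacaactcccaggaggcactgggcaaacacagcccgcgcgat
The match to the TATA box letters begins 169 bases before the start site. The 250 bases held no match on either strand to the cAMP response element TGACGTCA, the C/EBP core TTGCGCAA, the HNF4 motif CAAAGTCCA or the C/EBP-ATF element TGATGNAA. Among the 27025 promoters of the same length in the table, 13.0% held the TATA box letters, 1.62% the cAMP response element, 0.170% the C/EBP core, 0.381% the HNF4 motif and 3.53% the C/EBP-ATF element. The members with the largest mean falls were Afmid (chr11:117825503-117839908), Haao (chr17:83831348-83848981) and Arg1 (chr10:24915207-24927470). No bases are printed for Afmid and Haao. Annotated Haao exons cover the 250 bases before the start of Haao, and before that of Afmid, exons of Tk1 on the opposite strand leave 45 bases as the longest free stretch, which ends 205 bases from the start.

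The level of the members spanned a wide range in ND-fed mice. Per kilobase of exon (GENCODE vM21), Hpd, which acts in tyrosine breakdown, was the highest in WT mice of both sexes, at 1320.3 ± 195 CPM per kilobase in females and 915 ± 54.4 in males (SD, n = 4). In females Tat followed at 1103 ± 327, then Arg1 at 761 ± 163, Cps1 at 530.1 ± 70.2 and Ass1 at 429 ± 108 CPM per kilobase. In males Arg1 followed at 684 ± 111, then Tat at 649.7 ± 179 and Cps1 at 570.5 ± 57.2 CPM per kilobase. Hpd and Tat, and Cps1 and Ass1, in females, and Arg1, Tat and Cps1 in males, differed from the next gene in this order by less than the larger SD of the pair. At the low end, Bckdk stood at 2.29 ± 0.186 and Acmsd at 8.48 ± 1.35 CPM per kilobase in females. In raw counts, the 42 members together took 2.05% ± 0.234 of all counts in ND-fed WT females and 1.34% ± 0.103 in CDAHFD-fed WT females (SD, n = 4). The shares were 1.65% ± 0.111 and 1.33% ± 0.163 in WT males. In Cyp2b-null females the share ranged over 1.35 to 1.96% on ND and 1.26 to 1.37% on CDAHFD, and in Cyp2b-null males over 1.48 to 1.57% and 1.12 to 1.29%. The ranges of the shares on both diets overlapped in Cyp2b-null females and not in the other mice.

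On CDAHFD most of the module was lower relative to all genes, in both sexes and both genotypes. With TMM scaling, 29 of the 41 tested members were called lower and 2 higher in WT females (adjusted p under 0.05, edgeR quasi-likelihood test), where 10.2% of all genes tested were called lower and 13.9% higher. In Cyp2b-null females 23 were lower and 2 higher, against 13.9% and 16.9% of all genes. In WT males 27 were lower and 2 higher, against 15.0% and 18%. In Cyp2b-null males 30 were lower and 2 higher, against 17.1% and 20.3%. Since the list was drawn up with earlier results of these data known, its counts beside the shares of all genes are a description and no test. The median log2 change of the members was -0.62, -0.46, -0.56 and -0.58 in WT females, Cyp2b-null females, WT males and Cyp2b-null males, and changes given as 4 values below keep this order. The median over all genes tested lay between -0.02 and 0.03. Lower in all 4 comparisons were 19 of 41 members (46.3%), where 582 of 12978 genes tested in all 4 were (4.48%). Higher in all 4 were Bckdk and Gpt2 (4.88% of members, 9.08% of all genes). Amt, Gpt, Sdsl and Bckdhb were called in none, and 0 members were called in opposite directions in different comparisons.

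**Figure D1:**
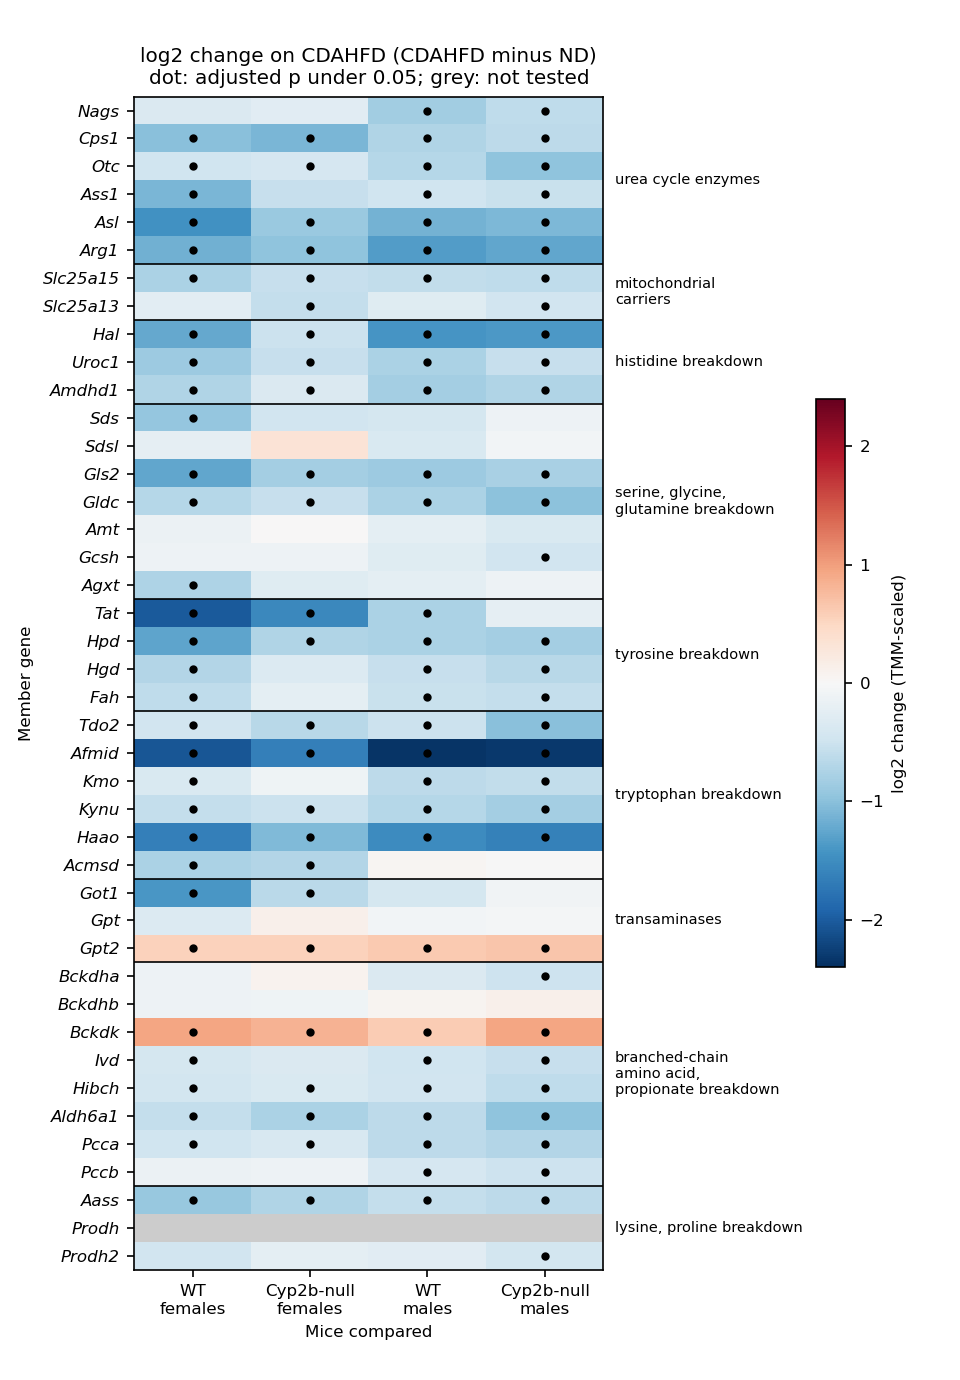
Log2 change on CDAHFD relative to ND (color, TMM scaling) of the 42 members (rows, grouped by pathway) in the mice of each sex and genotype (columns), with a dot where the adjusted p was under 0.05 and grey where a gene was not tested. Blue cells, for lower on CDAHFD, fill most rows, with Afmid the darkest, and Bckdk and Gpt2 are red in all 4 columns. Scaled to hepatocyte markers, 9, 10, 8 and 9 of the lower calls of the 4 columns had values above 0.

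Markers of hepatocytes and of other cell types moved with the diet, and the counts above depended on how the libraries were scaled. The summed level of the hepatocyte markers (7 of the 8 listed were in the tables, among them Alb) was 143408 to 214087 CPM over the 8 ND-fed female libraries and 87539 to 134064 CPM over the 8 CDAHFD-fed ones. In males it was 118928 to 147315 and 67195 to 118806 CPM, and the ranges of the diets did not overlap in either sex. The macrophage marker sum (7 genes, Trem2 at 0 in every library) was 265 to 425 CPM on ND and 814 to 1338 CPM on CDAHFD in females, and 121 to 224 and 718 to 1916 CPM in males. The stellate cell and myofibroblast sum (7 genes) was 247 to 357 CPM on ND and 594 to 846 CPM on CDAHFD in females, and 137 to 206 and 499 to 896 CPM in males. The cholangiocyte sum (5 genes) was 34.6 to 62.0 CPM on ND and 114 to 248 CPM on CDAHFD in females, and 20.4 to 38.1 and 97.6 to 313 CPM in males. None of the ranges of these lists overlapped between the diets. The endothelial sum (4 genes) did overlap, at 125 to 174 CPM on ND and 86.4 to 133 CPM on CDAHFD in females. In males it was 81.2 to 134 and 82.3 to 172 CPM. Single markers went against their list. In males 1 hepatocyte marker per genotype had a log2 change above 0 (0.09 in WT and 0.22 in Cyp2b-null mice). In females 1 macrophage marker per genotype was below 0 (-0.53 and -0.10). The part of these shifts in the members' changes was not tested.

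Scaled to the summed hepatocyte markers in place of TMM, the members' median log2 change was 0.04, 0.14, 0.05 and -0.01, so that its sign turned in 3 of the 4 comparisons, while the median of all genes moved to 0.66, 0.69, 0.62 and 0.60. The members then called lower numbered 9, 2, 5 and 7, and those called higher 7, 10, 5 and 7. With library size alone, 16, 11, 9 and 15 members were lower and 2, 3, 4 and 4 higher, with a member median of -0.29, -0.23, -0.18 and -0.23 against 0.32, 0.28, 0.37 and 0.36 over all genes. Shares of all genes called were counted with TMM only, so the member counts under these other scalings have no share beside them. Each scaling applies 1 factor per library to every gene, so that both medians move together by construction and their distance (members lower by 0.62, 0.49, 0.54 and 0.57 on the log2 scale with TMM) is no check on the scale. Of the 19 members lower in all 4 comparisons, all 19 stayed below 0 in each with library size alone, and 7 did so with hepatocyte markers, namely Cps1, Asl, Arg1, Gls2, Hpd, Afmid and Haao. With library size alone, 6 of the 19 kept a lower call in all 4, namely Asl, Arg1, Gls2, Hpd, Afmid and Haao. Afmid alone was called lower in all 4 under TMM, library size and hepatocyte markers, and Bckdk and Gpt2 were called higher in all 4 under each.

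**Figure D2:**
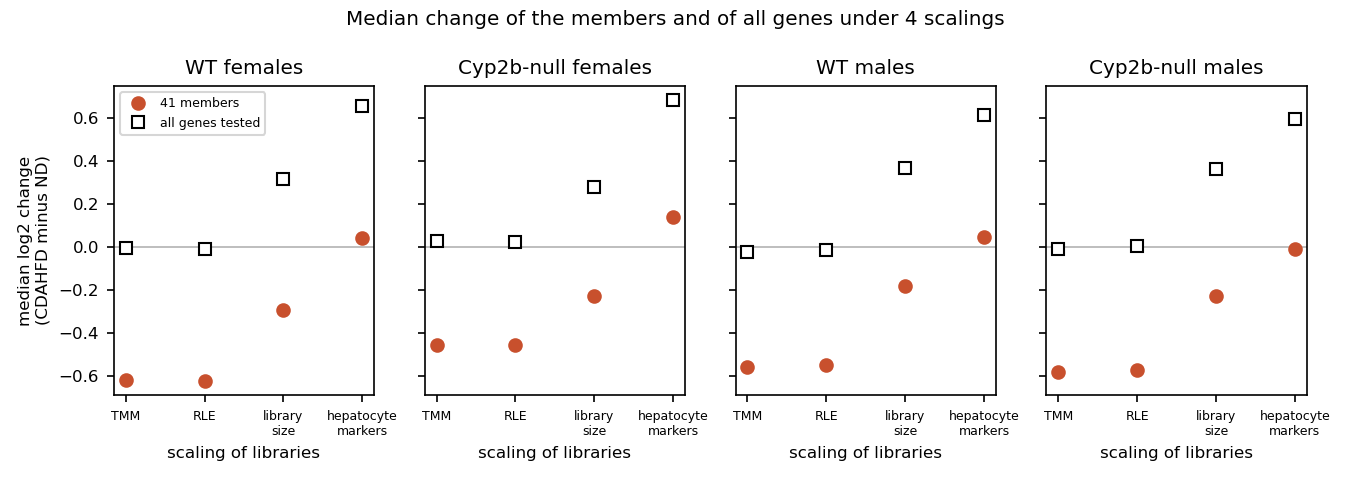
Median log2 change on CDAHFD of the 41 tested members (filled) and of all genes tested (open squares) in each of the 4 comparisons of diets under 4 scalings of the libraries. Both medians move up together from TMM to library size and to hepatocyte markers, since each scaling applies 1 factor per library to every gene.

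The 6 enzymes of the urea cycle were lower on CDAHFD in 21 of 24 tests with TMM scaling, of which 4 turned above 0 with hepatocyte markers as the scale. All 6 were called lower in both genotypes of males, 5 in WT females and 4 in Cyp2b-null females. The 4 that turned were Otc in both genotypes of females and Ass1 in both genotypes of males. Scaled to hepatocyte markers, Asl and Arg1 kept their calls in 3 comparisons, all but Cyp2b-null females, and Cps1, Otc, Ass1 and Nags in none. Cps1, which makes carbamoyl phosphate from ammonia in the mitochondria and is the entry step of the cycle, fell in all 4 comparisons. In WT females, Cps1 was measured at 2576, 2641, 3267 and 3297 CPM on ND and 1641, 1399.5, 1523 and 1297 CPM on CDAHFD. Cps1 levels in Cyp2b-null females were 3307, 2575, 3344 and 1962 CPM on ND and 1529, 1460.4, 877 and 1334 CPM on CDAHFD. For Cps1, all CDAHFD-fed female libraries lay below the ND-fed libraries of their genotype. In WT males, Cps1 was measured at 2777, 3556, 3180.5 and 3162 CPM on ND and 2625, 2059, 1238 and 1807 CPM on CDAHFD. Cps1 levels in Cyp2b-null males were 2523, 2287, 2669 and 2306 CPM on ND and 1749, 1436, 1136 and 1987 CPM on CDAHFD. For Cps1, all CDAHFD-fed male libraries lay below the ND-fed libraries of their genotype. For Cps1, the log2 changes on CDAHFD were -1.01 (SE 0.18, adjusted p = 3.01e-04) in WT females, -1.11 (SE 0.18, adjusted p = 1.14e-04) in Cyp2b-null females, -0.71 (SE 0.19, adjusted p = 0.00645) in WT males and -0.63 (SE 0.19, adjusted p = 0.0123) in Cyp2b-null males. Without CDAHFD-fed Cyp2b-null male replicate 3, the lowest of its group, the call in Cyp2b-null males was lost (adjusted p = 0.0517). With library size alone Cps1 was not called in WT males or Cyp2b-null males (adjusted p = 0.0615 and 0.111). Scaled to hepatocyte markers, Cps1 was called in none of the 4 comparisons (adjusted p = 0.0785 to 0.653).

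Otc, which joins carbamoyl phosphate to ornithine to make citrulline, fell in all 4 comparisons. In WT females, Otc was measured at 541, 549, 639 and 614 CPM on ND and 458, 502, 406 and 323 CPM on CDAHFD. Otc levels in Cyp2b-null females were 618, 597, 640.3 and 509 CPM on ND and 460.2, 467, 478 and 387 CPM on CDAHFD. For Otc, all CDAHFD-fed female libraries lay below the ND-fed libraries of their genotype. In WT males, Otc was measured at 481, 394, 516 and 360.4 CPM on ND and 356, 264, 212 and 254 CPM on CDAHFD. Otc levels in Cyp2b-null males were 395, 481, 519.7 and 501 CPM on ND and 245, 258, 223 and 241 CPM on CDAHFD. For Otc, all CDAHFD-fed male libraries lay below the ND-fed libraries of their genotype. For Otc, the log2 changes on CDAHFD were -0.47 (SE 0.14, adjusted p = 0.0154) in WT females, -0.40 (SE 0.14, adjusted p = 0.0322) in Cyp2b-null females, -0.69 (SE 0.15, adjusted p = 0.00110) in WT males and -0.97 (SE 0.15, adjusted p = 2.72e-05) in Cyp2b-null males. In Cyp2b-null females that call was lost without ND-fed replicate 1, 2 or 3 or CDAHFD-fed replicate 2 or 4, each left out alone (adjusted p = 0.0504 to 0.0949). In WT females it was lost without CDAHFD-fed replicate 4 (adjusted p = 0.0649). With library size alone Otc was called in Cyp2b-null males only (adjusted p = 0.414 in WT females, 0.403 in Cyp2b-null females and 0.0620 in WT males).

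Ass1, which condenses citrulline with aspartate, fell in WT females and in both genotypes of males and did not pass the test in Cyp2b-null females. In WT females, Ass1 was measured at 844, 804, 1358 and 1138 CPM on ND and 434, 593, 461 and 449 CPM on CDAHFD. Ass1 levels in Cyp2b-null females were 961, 684, 1045 and 491 CPM on ND and 564, 485, 705 and 424 CPM on CDAHFD. For Ass1, the diet groups did not overlap in WT females and overlapped in Cyp2b-null females. In WT males, Ass1 was measured at 569, 496, 581 and 546 CPM on ND and 507, 366, 331 and 369.6 CPM on CDAHFD. Ass1 levels in Cyp2b-null males were 453, 512, 589 and 518 CPM on ND and 406, 399, 288 and 329.7 CPM on CDAHFD. For Ass1, the diet groups did not overlap in Cyp2b-null males and overlapped in WT males. For Ass1, the log2 changes on CDAHFD were -1.10 (SE 0.22, adjusted p = 7.62e-04) in WT females, -0.55 (SE 0.22, adjusted p = 0.0603) in Cyp2b-null females, -0.48 (SE 0.14, adjusted p = 0.0123) in WT males and -0.54 (SE 0.14, adjusted p = 0.00437) in Cyp2b-null males. The call in WT males was lost without CDAHFD-fed replicate 3 (adjusted p = 0.0516). With library size alone Ass1 was not called in WT males or Cyp2b-null males (adjusted p = 0.528 and 0.249). In Cyp2b-null females Ass1 passed the test when CDAHFD-fed replicate 3, ND-fed replicate 4 or ND-fed WT female replicate 3 was left out (adjusted p = 0.0134 to 0.0498).

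Asl, which splits argininosuccinate into arginine and fumarate, was the member of the cycle with the largest fall in WT females. In WT females, Asl was measured at 521, 494, 656 and 750.3 CPM on ND and 233, 267, 179 and 212 CPM on CDAHFD. Asl levels in Cyp2b-null females were 552, 329, 543 and 285 CPM on ND and 227, 203, 312 and 183 CPM on CDAHFD. For Asl, the diet groups did not overlap in WT females and overlapped in Cyp2b-null females. In WT males, Asl was measured at 532, 631, 481 and 565 CPM on ND and 314, 235, 211 and 248 CPM on CDAHFD. Asl levels in Cyp2b-null males were 603, 461, 448 and 410.2 CPM on ND and 269, 243, 183 and 217 CPM on CDAHFD. For Asl, all CDAHFD-fed male libraries lay below the ND-fed libraries of their genotype. For Asl, the log2 changes on CDAHFD were -1.44 (SE 0.22, adjusted p = 4.26e-05) in WT females, -0.89 (SE 0.21, adjusted p = 0.00357) in Cyp2b-null females, -1.13 (SE 0.15, adjusted p = 6.47e-06) in WT males and -1.08 (SE 0.15, adjusted p = 9.42e-06) in Cyp2b-null males.

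Arg1, the arginase that releases urea and returns ornithine to the cycle, had the largest fall of the cycle in males. In WT females, Arg1 was measured at 1328, 1443, 2058 and 1951 CPM on ND and 789, 856, 524 and 873 CPM on CDAHFD. Arg1 levels in Cyp2b-null females were 1335, 1243, 1429 and 1006 CPM on ND and 623, 639, 695 and 594 CPM on CDAHFD. For Arg1, all CDAHFD-fed female libraries lay below the ND-fed libraries of their genotype. In WT males, Arg1 was measured at 1482, 1528, 1840.4 and 1241 CPM on ND and 820.3, 545, 395 and 649 CPM on CDAHFD. Arg1 levels in Cyp2b-null males were 1283, 1330.3, 1366 and 1428 CPM on ND and 705, 605, 432 and 548 CPM on CDAHFD. For Arg1, all CDAHFD-fed male libraries lay below the ND-fed libraries of their genotype. For Arg1, the log2 changes on CDAHFD were -1.16 (SE 0.17, adjusted p = 4.03e-05) in WT females, -0.97 (SE 0.17, adjusted p = 2.22e-04) in Cyp2b-null females, -1.34 (SE 0.19, adjusted p = 1.10e-05) in WT males and -1.24 (SE 0.19, adjusted p = 2.10e-05) in Cyp2b-null males.

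Nags makes N-acetylglutamate, the activator that Cps1 needs, and was called lower in males only, a difference between the sexes that did not pass the test. In WT females, Nags was measured at 81.0, 50.7, 55.3 and 71.5 CPM on ND and 66.9, 40.7, 55.1 and 41.4 CPM on CDAHFD. Nags levels in Cyp2b-null females were 71.9, 58.7, 71.8 and 52.8 CPM on ND and 45.9, 43.7, 66.2 and 54.9 CPM on CDAHFD. For Nags, the diet groups overlapped in both genotypes of females. In WT males, Nags was measured at 73.1, 93.3, 76.1 and 82.8 CPM on ND and 49.8, 44.2, 44.7 and 44.0 CPM on CDAHFD. Nags levels in Cyp2b-null males were 77.7, 73.4, 60.7 and 77.6 CPM on ND and 52.8, 59.2, 36.6 and 41.6 CPM on CDAHFD. For Nags, all CDAHFD-fed male libraries lay below the ND-fed libraries of their genotype. For Nags, the log2 changes on CDAHFD were -0.35 (SE 0.19, adjusted p = 0.189) in WT females, -0.27 (SE 0.19, adjusted p = 0.293) in Cyp2b-null females, -0.83 (SE 0.14, adjusted p = 9.63e-05) in WT males and -0.61 (SE 0.14, adjusted p = 0.00158) in Cyp2b-null males. The call in Cyp2b-null males was lost with library size alone (adjusted p = 0.164). Nags shares 15.6% of its exon length with the antisense gene Gm11586, and since counting by strand is not stated, reads of both cannot be told apart there.

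**Figure D3:**
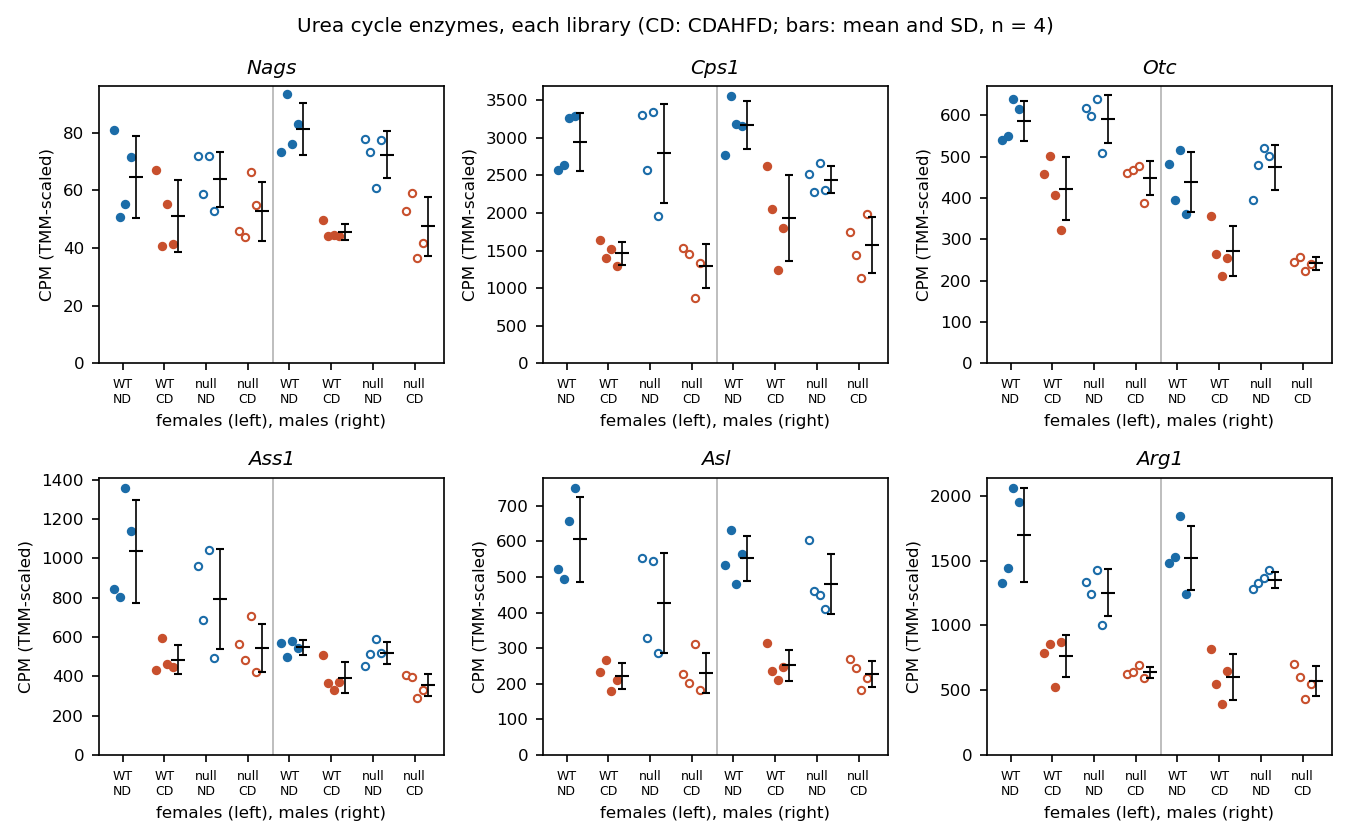
CPM (TMM-scaled) of the 6 urea cycle enzymes in each library, with females on the left and males on the right of each panel, blue for ND and red for CDAHFD, filled points for WT and open points for Cyp2b-null, and the mean and SD of 4 libraries beside each group. The red points lie below the blue points of the same genotype for most enzymes. The diet groups overlap for Nags in females, for Asl in Cyp2b-null females, and for Ass1 in Cyp2b-null females and WT males. Scaled to hepatocyte markers, Nags and Otc in females and Ass1 in Cyp2b-null females and in males had log2 changes above 0.

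Both mitochondrial carriers that serve the cycle are members. Slc25a15, which exchanges ornithine for citrulline across the inner membrane, was lower in all 4 comparisons, with log2 changes of -0.75, -0.55, -0.60 and -0.61. Slc25a13, the aspartate-glutamate carrier citrin, was called lower in Cyp2b-null mice of both sexes (-0.57 and -0.46), and its values in WT mice were -0.26 in females and -0.28 in males. With hepatocyte markers as the scale, Slc25a13 had values from 0.11 to 0.42, all above 0, and Slc25a15 values from -0.09 to 0.13.

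Of the 6 members that break down tryptophan, 6, 5, 5 and 5 were called lower, and the largest falls of the whole module were among them. With hepatocyte markers as the scale 16 of these 21 calls stayed below 0. Afmid kept its lower call there in 4 comparisons, Haao in 3 and Tdo2 in 1, and the other members of the route in none. Afmid, the formamidase that turns N-formylkynurenine into kynurenine, fell most of all members in all 4 comparisons. In WT females, Afmid was measured at 159, 150.41, 192 and 199.8 CPM on ND and 42.4, 60.6, 46.7 and 19.7 CPM on CDAHFD. Afmid levels in Cyp2b-null females were 157, 114, 195 and 110.2 CPM on ND and 57.1, 46.4, 50.1 and 31.5 CPM on CDAHFD. For Afmid, all CDAHFD-fed female libraries lay below the ND-fed libraries of their genotype. In WT males, Afmid was measured at 172, 168, 151 and 148 CPM on ND and 42.7, 29.5, 26.5 and 26.9 CPM on CDAHFD. Afmid levels in Cyp2b-null males were 151, 148, 153 and 128 CPM on ND and 30.5, 25.0, 27.0 and 35.0 CPM on CDAHFD. For Afmid, all CDAHFD-fed male libraries lay below the ND-fed libraries of their genotype. For Afmid, the log2 changes on CDAHFD were -2.06 (SE 0.26, adjusted p = 5.94e-06) in WT females, -1.64 (SE 0.26, adjusted p = 6.09e-05) in Cyp2b-null females, -2.35 (SE 0.15, adjusted p = 3.84e-10) in WT males and -2.32 (SE 0.15, adjusted p = 3.90e-10) in Cyp2b-null males. Afmid shares 44.2% of its exon length with Gm20708 on the same strand in GENCODE vM21, and how such reads were assigned is not stated.

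Haao oxidizes 3-hydroxyanthranilate further along the same route, toward quinolinate and NAD. In WT females, Haao was measured at 582, 523, 791 and 923 CPM on ND and 238, 255, 238 and 169.5 CPM on CDAHFD. Haao levels in Cyp2b-null females were 576, 593, 687 and 479 CPM on ND and 270.5, 255, 384 and 217 CPM on CDAHFD. For Haao, all CDAHFD-fed female libraries lay below the ND-fed libraries of their genotype. In WT males, Haao was measured at 591, 523, 677 and 455 CPM on ND and 271, 162, 179 and 181 CPM on CDAHFD. Haao levels in Cyp2b-null males were 511, 542, 660.5 and 590.3 CPM on ND and 178, 211, 171 and 187 CPM on CDAHFD. For Haao, all CDAHFD-fed male libraries lay below the ND-fed libraries of their genotype. For Haao, the log2 changes on CDAHFD were -1.65 (SE 0.20, adjusted p = 3.62e-06) in WT females, -1.05 (SE 0.20, adjusted p = 3.66e-04) in Cyp2b-null females, -1.50 (SE 0.16, adjusted p = 2.80e-07) in WT males and -1.62 (SE 0.16, adjusted p = 7.73e-08) in Cyp2b-null males. The other members of the route had smaller mean changes. Tdo2, the first enzyme, had log2 changes of -0.46, -0.67, -0.51 and -0.9997, all called. Kynu, kynureninase, had -0.58, -0.52, -0.68 and -0.81, all called, and Kmo, the kynurenine monooxygenase, had -0.37, -0.11, -0.62 and -0.58 and was not called in Cyp2b-null females. Acmsd, which turns the pathway away from NAD synthesis, was called lower in females only (-0.76 and -0.70), with values of 0.04 and -0.01 in males, and that difference between the sexes did not pass the test.

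The 4 members of tyrosine breakdown were all called lower in WT mice of both sexes, Tat and Hpd in Cyp2b-null females, and Hpd, Hgd and Fah in Cyp2b-null males. Tat, the aminotransferase that takes the first step and a classic gene induced by glucocorticoids and fasting, varied widely between libraries of a group. In WT females, Tat was measured at 1804, 3669, 2782 and 2355 CPM on ND and 743, 661, 348 and 884 CPM on CDAHFD. Tat levels in Cyp2b-null females were 2099, 817, 1712 and 612 CPM on ND and 451, 345, 492 and 504 CPM on CDAHFD. For Tat, all CDAHFD-fed female libraries lay below the ND-fed libraries of their genotype. In WT males, Tat was measured at 1758, 930.2, 1893 and 1669 CPM on ND and 1131, 943, 565 and 1055 CPM on CDAHFD. Tat levels in Cyp2b-null males were 879.8, 1061, 789.7 and 831 CPM on ND and 739, 934, 502 and 884 CPM on CDAHFD. For Tat, the diet groups overlapped in both genotypes of males. For Tat, the log2 changes on CDAHFD were -2.01 (SE 0.33, adjusted p = 1.02e-04) in WT females, -1.55 (SE 0.32, adjusted p = 0.00105) in Cyp2b-null females, -0.76 (SE 0.23, adjusted p = 0.0133) in WT males and -0.22 (SE 0.23, adjusted p = 0.484) in Cyp2b-null males. Hpd, which makes homogentisate, fell in all 4 comparisons (-1.27, -0.72, -0.76 and -0.82). Hgd (-0.70, -0.33, -0.56 and -0.66) and Fah (-0.62, -0.23, -0.53 and -0.58), the enzymes of the last steps, were not called in Cyp2b-null females. With hepatocyte markers as the scale, 9 of the 13 calls of this route stayed below 0. Tat kept its lower call there in 2 comparisons and Hpd in 1, and Hgd and Fah in none.

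All 3 members of histidine breakdown were lower in all 4 comparisons, and 8 of these 12 calls stayed below 0 with hepatocyte markers as the scale. With that scale Hal kept its lower call in 3 comparisons, and Uroc1 and Amdhd1 in none. Hal, histidase, takes the first step and is enriched in periportal hepatocytes. In WT females, Hal was measured at 456, 389, 549 and 665 CPM on ND and 204, 238, 253 and 190.0 CPM on CDAHFD. Hal levels in Cyp2b-null females were 306, 332, 424 and 296 CPM on ND and 279, 256, 224 and 188 CPM on CDAHFD. For Hal, all CDAHFD-fed female libraries lay below the ND-fed libraries of their genotype. In WT males, Hal was measured at 398, 639, 411 and 486 CPM on ND and 247, 184, 122 and 177 CPM on CDAHFD. Hal levels in Cyp2b-null males were 651, 451, 376 and 272 CPM on ND and 186, 156, 121 and 209 CPM on CDAHFD. For Hal, all CDAHFD-fed male libraries lay below the ND-fed libraries of their genotype. For Hal, the log2 changes on CDAHFD were -1.22 (SE 0.17, adjusted p = 2.18e-05) in WT females, -0.52 (SE 0.17, adjusted p = 0.0252) in Cyp2b-null females, -1.41 (SE 0.24, adjusted p = 1.11e-04) in WT males and -1.38 (SE 0.24, adjusted p = 1.03e-04) in Cyp2b-null males. The next enzymes, Uroc1 (-0.86, -0.55, -0.76 and -0.55) and Amdhd1 (-0.72, -0.35, -0.81 and -0.72), had smaller falls in WT mice.

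Members that act on glutamine, serine and glycine were mixed. Gls2, the liver glutaminase, fell in all 4 comparisons (-1.25, -0.82, -0.87 and -0.77), and so did Gldc, the decarboxylase of the glycine cleavage system (-0.69, -0.54, -0.76 and -0.98). Of the other proteins of that system, Amt had log2 changes of -0.14, 0.00, -0.23 and -0.36 and was not called in any comparison, and Gcsh had -0.13, -0.13, -0.30 and -0.47 and was called in Cyp2b-null males only. Sds, serine dehydratase, was called lower in WT females (-0.93, adjusted p = 0.0143) and had values of -0.46, -0.42 and -0.12 elsewhere, and its paralog Sdsl had -0.22, 0.34, -0.36 and -0.06 with no call. Sds shares 21.3% of its exon length with Plbd2 on the opposite strand. Agxt, which detoxifies glyoxylate, was called lower in WT females (-0.74, adjusted p = 0.00479), and its other values were -0.29, -0.23 and -0.12. With hepatocyte markers as the scale, 9 of the 11 lower calls of these genes stayed below 0. Gls2 kept its lower call there in 1 comparison, and Gldc, Gcsh, Sds and Agxt in none. Gcsh then had values from 0.12 to 0.53. Gcsh and Amt were called higher in 2 comparisons each, and Sdsl and Agxt in 1 each.

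The transaminases and the branched-chain route held the members that rose. Gpt2, the mitochondrial alanine aminotransferase, rose in all 4 comparisons. In WT females, Gpt2 was measured at 249, 367, 354 and 429 CPM on ND and 535, 540.4, 425 and 561 CPM on CDAHFD. Gpt2 levels in Cyp2b-null females were 367, 257, 345 and 188 CPM on ND and 442, 424, 351 and 487 CPM on CDAHFD. For Gpt2, the diet groups overlapped in both genotypes of females. In WT males, Gpt2 was measured at 374, 390.5, 375 and 328 CPM on ND and 583, 658, 518 and 494 CPM on CDAHFD. Gpt2 levels in Cyp2b-null males were 378, 348, 380.1 and 359.9 CPM on ND and 572, 689.9, 501 and 577 CPM on CDAHFD. For Gpt2, all CDAHFD-fed male libraries lay above the ND-fed libraries of their genotype. For Gpt2, the log2 changes on CDAHFD were 0.56 (SE 0.19, adjusted p = 0.0357) in WT females, 0.56 (SE 0.19, adjusted p = 0.0292) in Cyp2b-null females, 0.62 (SE 0.12, adjusted p = 4.30e-04) in WT males and 0.67 (SE 0.12, adjusted p = 1.47e-04) in Cyp2b-null males. The calls for Gpt2 in females depended on single libraries. In WT females the call was lost without any of ND-fed replicates 1, 2 and 3 and CDAHFD-fed replicates 1, 2 and 4, and in Cyp2b-null females without ND-fed replicate 2 or 4 or CDAHFD-fed replicate 1, 2 or 4 (adjusted p = 0.0508 to 0.133). Its cytosolic paralog Gpt had log2 changes of -0.33, 0.13, -0.07 and -0.04 and no call. Got1, the cytosolic aspartate aminotransferase, fell in WT females (-1.40, SE 0.20, adjusted p = 2.08e-05) and in Cyp2b-null females (-0.65, SE 0.19, adjusted p = 0.0156), and had values of -0.42 and -0.09 in males that did not pass the test. With hepatocyte markers as the scale, Got1 had values from -0.71 to 0.49 and was called lower in 1 comparison and higher in 1. Gpt was called higher there in 3 comparisons.

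Bckdk, the kinase that phosphorylates and switches off the branched-chain ketoacid dehydrogenase, rose in all 4 comparisons. In each ND-fed group it had the lowest CPM per kilobase of the tested members. In WT females, Bckdk was measured at 8.80, 8.96, 7.46 and 8.66 CPM on ND and 14.9, 14.1, 17.8 and 18.4 CPM on CDAHFD. Bckdk levels in Cyp2b-null females were 6.98, 8.21, 12.5 and 8.78 CPM on ND and 13.0, 15.3, 19.1 and 16.05 CPM on CDAHFD. For Bckdk, all CDAHFD-fed female libraries lay above the ND-fed libraries of their genotype. In WT males, Bckdk was measured at 8.87, 10.6, 8.75 and 8.59 CPM on ND and 12.9, 11.7, 15.5 and 15.7 CPM on CDAHFD. Bckdk levels in Cyp2b-null males were 8.97, 7.38, 9.73 and 6.32 CPM on ND and 14.4, 16.4, 17.7 and 14.5 CPM on CDAHFD. For Bckdk, all CDAHFD-fed male libraries lay above the ND-fed libraries of their genotype. For Bckdk, the log2 changes on CDAHFD were 0.94 (SE 0.19, adjusted p = 7.45e-04) in WT females, 0.83 (SE 0.18, adjusted p = 0.00188) in Cyp2b-null females, 0.61 (SE 0.17, adjusted p = 0.00859) in WT males and 0.95 (SE 0.17, adjusted p = 1.33e-04) in Cyp2b-null males. Of the subunits of its target, Bckdha had log2 changes of -0.12, 0.09, -0.34 and -0.50 and was called in Cyp2b-null males only, and Bckdhb had -0.12, -0.11, 0.06 and 0.12 and no call. Bckdha shares 61.7% of its exon length with B3gnt8 on the opposite strand. Downstream, Aldh6a1, Hibch and Pcca were called lower in all 4 comparisons, with log2 changes of -0.58, -0.76, -0.62 and -0.97 for Aldh6a1, which acts in valine breakdown and shares 18.6% of its exon length with Bbof1 on the opposite strand. Hibch, also of the valine route, had -0.43, -0.37, -0.47 and -0.61, and Pcca, a subunit of propionyl-CoA carboxylase, had -0.48, -0.39, -0.63 and -0.70. Ivd, which acts in leucine breakdown, had -0.42, -0.35, -0.48 and -0.55 and was not called in Cyp2b-null females, and Pccb, the other carboxylase subunit, had -0.15, -0.13, -0.40 and -0.50 and was called in males only. With hepatocyte markers as the scale, 12 of the 18 lower calls of the branched-chain and propionate genes turned to values above 0. Aldh6a1 kept its lower call there in 1 comparison, and the other genes of the route in none.

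**Figure D4:**
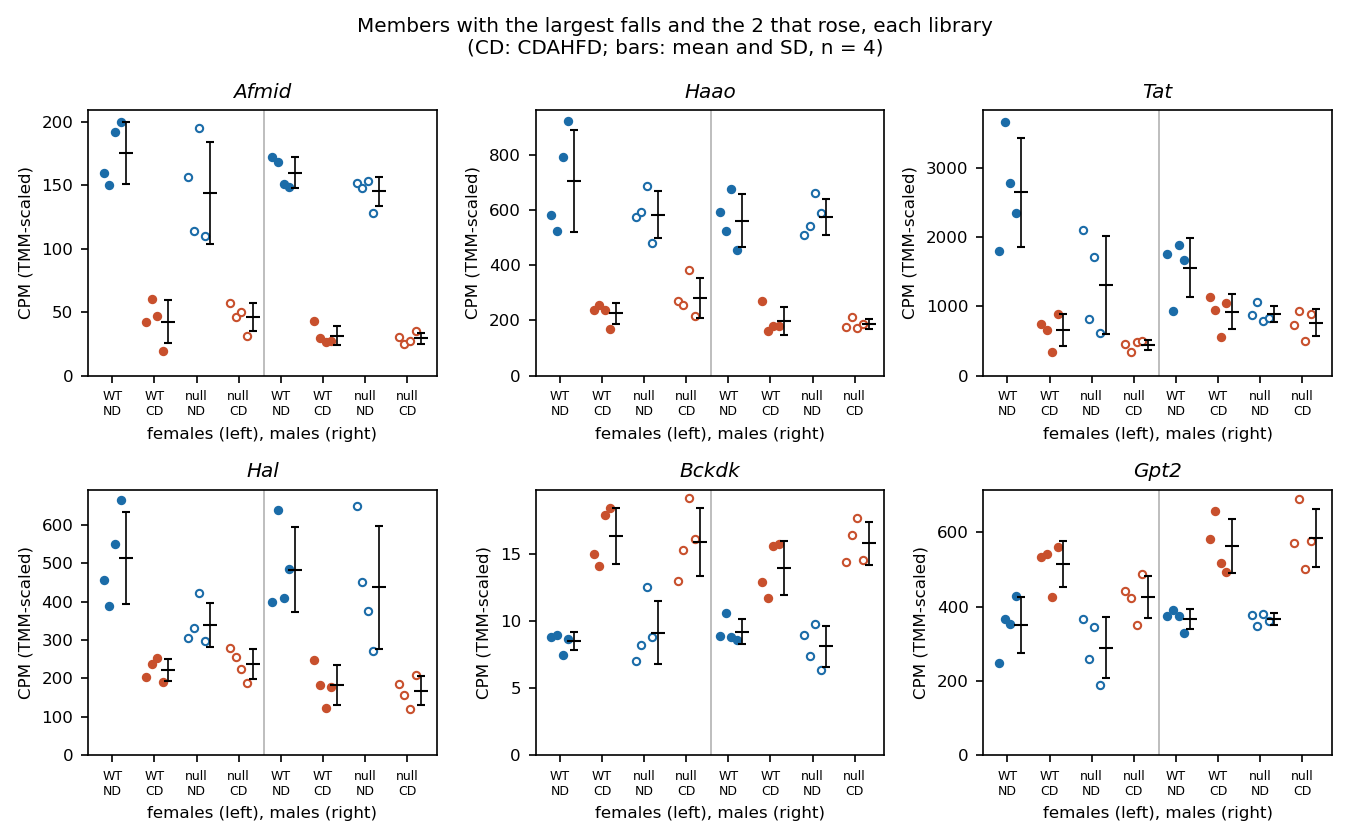
CPM (TMM-scaled) of Afmid, Haao, Tat, Hal, Bckdk and Gpt2 in each library, with females on the left and males on the right of each panel, blue for ND and red for CDAHFD, filled points for WT and open points for Cyp2b-null, and the mean and SD of 4 libraries beside each group. Afmid and Haao separate the diets in every sex and genotype, Tat separates them in females only, and Bckdk and Gpt2 are higher on CDAHFD. Scaled to hepatocyte markers, the called change of Hal in Cyp2b-null females turned above 0 (0.12 on the log2 scale), and the other called changes of these 6 genes kept their direction. Afmid kept its lower call there in 4 comparisons, Haao and Hal in 3 and Tat in 2.

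For lysine and proline, Aass, which starts lysine breakdown, fell in all 4 comparisons (-0.91, -0.72, -0.57 and -0.64). Prodh2, which acts on hydroxyproline, was called lower in Cyp2b-null males (-0.44, adjusted p = 0.0429) and had values of -0.46, -0.24 and -0.28 elsewhere. With hepatocyte markers as the scale, neither kept a lower call. Aass then had values from -0.24 to 0.04, and Prodh2 from 0.12 to 0.38, all above 0.

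Of 52 other genes of amino acid breakdown and transport outside the module, 50 could be tested. Called lower were 28, 20, 27 and 33 and higher 1, 0, 3 and 4 of them in the 4 comparisons, with median log2 changes of -0.52, -0.40, -0.43 and -0.56. Of all genes tested with TMM, 10.2%, 13.9%, 15.0% and 17.1% were called lower and 13.9%, 16.9%, 18% and 20.3% higher. This list was also chosen with earlier results known, so the shares are a description and no test. Hepatocyte marker scaling was an alternative added after the data were seen. Under it, 4, 3, 6 and 10 of the 50 genes were lower and 13, 16, 15 and 8 higher. Their median turned to 0.15, 0.27, 0.18 and 0.02. The median of all genes under that scaling was 0.66, 0.69, 0.62 and 0.60, above that of these genes in each comparison. Shares of all genes called were not counted there. The falls and rises in WT mice named next kept their sign and call under hepatocyte marker scaling. The largest falls in WT females were those of Gnmt, the methyltransferase that consumes S-adenosylmethionine, from 2539 ± 573 CPM on ND to 519 ± 165 CPM on CDAHFD (log2 change -2.29, SE 0.27, adjusted p = 2.59e-06), Etnppl (-1.59, SE 0.16, adjusted p = 3.60e-07) and Qdpr, which regenerates the cofactor of phenylalanine hydroxylase (-1.52, SE 0.18, adjusted p = 3.95e-06). In WT males they were those of Etnppl (-2.05, SE 0.19, adjusted p = 7.65e-08), Pipox (-1.53, SE 0.13, adjusted p = 1.14e-08) and Ido2 (-1.52, SE 0.16, adjusted p = 3.15e-07). Higher in WT males were Asns, asparagine synthetase (1.76, SE 0.50, adjusted p = 0.00961), and Glul, glutamine synthetase of pericentral hepatocytes (1.01, SE 0.13, adjusted p = 5.30e-06). In WT females Asns was the only gene of this list called higher. It had 0 to 2 counts in the ND-fed libraries, below the floor of detection, and 6 to 22 counts in the CDAHFD-fed ones.

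The next comparison asked whether the loss of Cyp2b changed the module. With the edgeR quasi-likelihood test 0 of 41 members were called between Cyp2b-null and WT mice in ND-fed females, CDAHFD-fed females, ND-fed males or CDAHFD-fed males, and DESeq2 also called 0 in each. Of all genes tested, 0.0756%, 0.0227%, 0.0371% and 0.0297% were called there. At an unadjusted p under 0.05, a looser threshold at which the share of all genes was not counted, there were 9, 1, 3 and 4 members. The median log2 difference of the 41 members (Cyp2b-null minus WT) was -0.14, 0.05, -0.08 and -0.09. The medians over all genes were -0.01, -0.01, -0.01 and 0.01. The member nearest to a call in ND-fed females was Got1, at 254, 345, 496 and 393 CPM in WT and 286, 188, 249.98 and 181 CPM in Cyp2b-null libraries, whose ranges overlapped (log2 difference -0.72, SE 0.19, adjusted p = 0.492). In ND-fed males it was Tat, at 1758, 930.2, 1893 and 1669 CPM in WT and 879.8, 1061, 789.7 and 831 CPM in Cyp2b-null libraries, which overlapped through WT replicate 2 (log2 difference -0.81, SE 0.23, adjusted p = 0.227). On CDAHFD it was Gldc in females (log2 difference -0.34, SE 0.15, adjusted p = 0.826) and Acmsd in males (-0.44, SE 0.19, adjusted p = 0.9999). A library spread of this size leaves wide limits, and a p above the threshold does not show that the genotypes were alike.

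The diet effect was also compared between the genotypes. In the edgeR test of this difference 0 members were called in either sex, where 0% and 0.00743% of all genes were called. DESeq2 also called 0 members in both. At an unadjusted p under 0.05, at which the share of all genes was not counted, there were 5 members in females and 0 in males. The nearest in females was Hal, whose fall was -1.22 in WT and -0.52 in Cyp2b-null mice (difference 0.70, SE 0.24, adjusted p = 0.760). In males it was Aldh6a1, with -0.62 in WT and -0.97 in Cyp2b-null mice (difference -0.34, SE 0.18, adjusted p = 0.830). In females the difference in diet change, Cyp2b-null minus WT, was above 0 for 36 of 41 members. Its median was 0.21 (0.01 over all genes). On ND, 32 of 41 members were lower in Cyp2b-null than in WT females. The shares of all genes with these signs were not counted. The ND-fed groups enter both counts, and no member passed the test.

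Between the sexes, 0 members were called for a different diet effect in WT mice with edgeR or DESeq2, where edgeR called 0.970% of all genes. In Cyp2b-null mice 0 were called with edgeR, where 3.40% of all genes were called. DESeq2 called 2 there (Tat at 1.34 with adjusted p = 0.0493 and Bckdha at -0.58 with adjusted p = 0.0472). At an unadjusted p under 0.05 (edgeR) there were 6 members in WT and 11 in Cyp2b-null mice. The share of all genes at this looser threshold was not counted, here or for the genotype effect below. Got1 was nearest in WT mice, with diet changes of -1.40 in females and -0.42 in males (difference, male minus female, 1.0014, SE 0.29, adjusted p = 0.0921). It passed without ND-fed WT female replicate 1 or CDAHFD-fed WT male replicate 3 (adjusted p = 0.0416 and 0.0278). Tat was nearest in Cyp2b-null mice, with -1.55 in females and -0.22 in males (difference 1.35, SE 0.42, adjusted p = 0.0670). It passed with DESeq2 (adjusted p = 0.0493) and without ND-fed Cyp2b-null female replicate 2 or 4 (adjusted p = 0.0486 and 0.0276). For the genotype effect, 0 members differed between the sexes on ND (edgeR, 0 at an unadjusted p under 0.05, 0.00713% of all genes called, nearest Hal at 0.46, SE 0.31, adjusted p = 0.9999) or on CDAHFD (1 at an unadjusted p under 0.05, 0.00713% called, nearest Hpd at -0.50, SE 0.23, adjusted p = 0.9999), and DESeq2 called 0 in both.

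The sexes themselves differed in part of the module. In ND-fed WT mice 9 of 41 members were called lower in males than in females and 0 higher, where 9.45% of all genes tested were called lower and 8.35% higher (1 fit to all 8 groups, CPM scaled over both sexes). The median log2 difference of the members, male minus female, was -0.12 and that of all genes -0.04. The female and male libraries were deposited as separate tables, and whether they were sequenced together is not given in the sources used here, so sex and such a batch cannot be told apart. Sds had the largest difference, with 170.1, 228, 335 and 275 CPM in females and 103, 89.7, 133 and 72.8 CPM in males (log2 difference -1.33, SE 0.28, adjusted p = 0.00104). Got1 stood at 252, 339, 492 and 391 CPM in females and 216, 180.0, 209 and 150.03 CPM in males (-0.96, SE 0.20, adjusted p = 0.00107). Agxt stood at 408, 396, 534 and 441 CPM in females and 253, 218, 273 and 202 CPM in males (-0.91, SE 0.17, adjusted p = 3.06e-04). For each of these 3, which act on serine, aspartate and alanine, every male library lay below every female library. Ass1 of the urea cycle had 839, 789, 1348 and 1133 CPM in females and 578, 505, 592 and 557 CPM in males (-0.88, SE 0.19, adjusted p = 0.00166). Gls2 had 457, 464, 531 and 581 CPM in females and 299.7, 336, 328 and 321 CPM in males (-0.66, SE 0.19, adjusted p = 0.0120), and Prodh2 had 219.6, 196, 230.3 and 229 CPM in females and 142, 137, 157 and 135 CPM in males (-0.62, SE 0.18, adjusted p = 0.0165). The groups of these genes did not overlap either. All 9 were picked by their calls in these same libraries, so the lack of overlap, here and below, adds no support. Of all 42 members, 13 had groups without overlap, and the share of all genes was not counted.

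The other 3 belong to the tyrosine and histidine routes. Fah had 543, 602, 730.3 and 716 CPM in females and 468, 330.4, 512 and 356 CPM in males (-0.64, SE 0.15, adjusted p = 0.00401), with no overlap. Hpd had 2544, 2372, 2896 and 3332 CPM in females and 1975, 1843, 2133 and 1979 CPM in males (-0.49, SE 0.16, adjusted p = 0.0302), and Amdhd1 had 311, 324, 349 and 365 CPM in females and 252, 264, 258 and 274 CPM in males (-0.37, SE 0.12, adjusted p = 0.0340), also without overlap. Hpd lost its call without ND-fed WT female replicate 3 or 4 or ND-fed WT male replicate 1, 2 or 4, and Amdhd1 without those 2 females or any of the 4 males (adjusted p = 0.0518 to 0.113 over both genes). With hepatocyte markers as the scale, all 9 kept a negative difference and 4 kept the call (Agxt, Ass1, Sds and Got1), while Kmo and Amt were called higher in males. The 5 other enzymes of the urea cycle did not pass the test, with log2 differences from -0.38 to 0.36.

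Markers of other cell types also differed between the sexes, and their summed levels are given here in CPM scaled over both sexes together. Of the 6 tested macrophage markers, 5 were called lower in males (median log2 difference -0.94, with Lyz2 at -1.97 and Clec4f at -1.01), and all 7 on the list, of which Trem2 was at 0 in every library, summed to 275 to 417 CPM in females and 123 to 228 CPM in males. Of 7 stellate cell and myofibroblast markers, Dcn was called lower (-1.21), with sums of 243 to 354 CPM in females and 143 to 203 CPM in males. Of 7 hepatocyte markers, Ttr (-0.74) and Ahsg (-0.68) were called lower and Apob higher (1.16), with sums of 142501 to 210174 CPM and 136069 to 150113 CPM. Of 5 cholangiocyte markers, Spp1 was called lower (-1.13) and Sox9 higher (1.54), with sums of 37.1 to 61.6 CPM and 23.0 to 31.5 CPM. The 4 endothelial markers had a median of -0.32 and sums of 132 to 159 CPM and 103 to 137 CPM. The part of these markers in the members' difference was not tested.

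**Figure D5:**
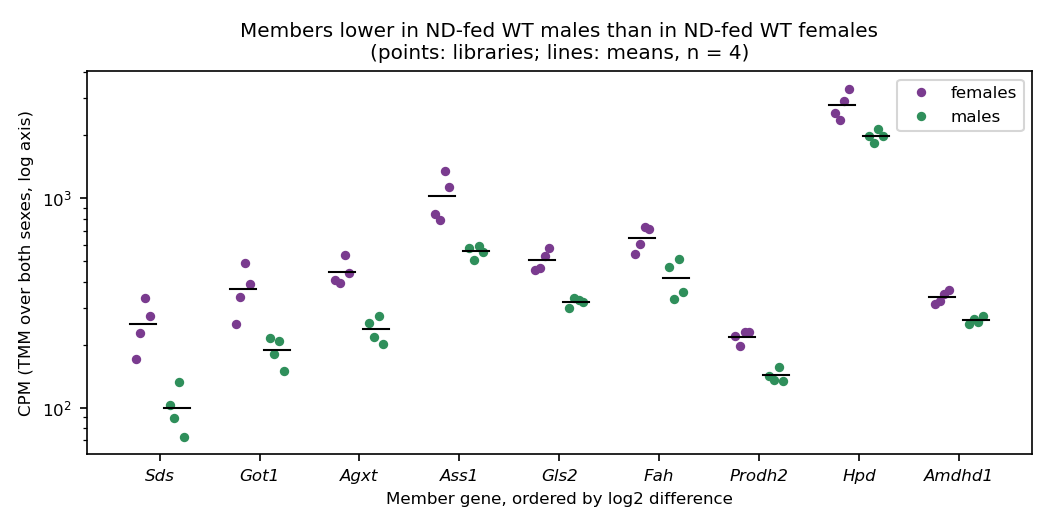
CPM of the 9 members called lower in ND-fed WT males than in ND-fed WT females (log axis, TMM factors over both sexes), with each library as a point and lines at the means of 4 libraries. The male points lie below the female points for all 9 genes, and the gap is widest for Sds. The genes were chosen by their calls in these same libraries, so the separation adds no support.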

How the data were processed

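RNA of 32 mouse liver samples (4 per group, 8 groups) was sequenced by the authors after TRIzol extraction and NEB Next Ultra library preparation. Per the submitters' processing notes and methods, reads were checked with FastQC, trimmed with Trimmomatic, aligned to GRCm38.p6 with GSNAP and counted on genes with Subread, with versions, strand setting and treatment of multiply mapping reads not given in the sources used here. The authors deposited raw counts per gene, 1 table per sex, and 0 columns were left unused.

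Counts were filtered with filterByExpr (smallest count 10, smallest total 15), scaled with TMM and tested with the edgeR 4.0.16 quasi-likelihood test (R 4.3.3) on the 4 groups of each sex, or on all 8 groups for differences between the sexes, without a replicate block. Adjustment of p followed Benjamini-Hochberg across every tested gene, with calls under 0.05. SE is the log2 change divided by the square root of the F statistic. The test was tested on simulated data. Alternatives were DESeq2 1.42.0, RLE factors, library size, hepatocyte marker scaling (7 of 8 genes, Tf was not found by symbol), other filters, smaller and larger fits, a replicate block and leaving out libraries. Full values are given for the urea cycle enzymes, the 3 largest called rises and falls of each diet comparison, and called or nearest members elsewhere. Members and lists were chosen with earlier results of these data known. A gene of the other lists that this rule would name is not reported here.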

Additional observations from a re-analysis of the deposited data

Results flagged for a closer look

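Among the 23 members given with full values, Dixon's ratio picked out 1 library far from the others of its group in 4 of 184 groups of 4, and chance alone picks about 1 in 20 groups. Aldh6a1 in CDAHFD-fed WT female replicate 4 was at 263 CPM, where the other 3 libraries lay between 393 and 400.1 CPM. Bckdk in ND-fed WT male replicate 2 was at 10.6 CPM, where the other 3 libraries lay between 8.59 and 8.87 CPM. Nags in CDAHFD-fed WT male replicate 1 was at 49.8 CPM, where the other 3 libraries lay between 44.0 and 44.7 CPM. Prodh2 in ND-fed Cyp2b-null male replicate 4 was at 154 CPM, where the other 3 libraries lay between 128 and 132 CPM.

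Outside the module, the diet effect on 5 pathway genes or regulators differed between the sexes in the fit to all 8 groups. These are 1 of 50 other pathway genes and 0 of 15 regulators tested in WT mice, where 0.970% of all genes were called, and 3 and 1 in Cyp2b-null mice, where 3.40% were. For Glul, glutamine synthetase, the difference (male minus female) in WT mice was 0.96 (SE 0.20, adjusted p = 0.0106), with diet changes of 0.07 in females and 1.01 in males. In Cyp2b-null mice the differences were 1.22 (SE 0.31, adjusted p = 0.0228) for the amino acid transporter Slc38a2 (-1.58 in females and -0.38 in males), -0.86 (SE 0.25, adjusted p = 0.0456) for Hsd17b10 of isoleucine breakdown (-0.32 in females and -1.20 in males), -0.75 (SE 0.18, adjusted p = 0.0185) for Aldh7a1 of lysine breakdown (-0.14 in females and -0.91 in males) and -0.64 (SE 0.18, adjusted p = 0.0395) for the glucagon receptor Gcgr (0.19 in females and -0.47 in males).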

How the results depend on the processing

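The scaling of the libraries changed the diet results most. Members called in WT females, Cyp2b-null females, WT males and Cyp2b-null males numbered 31, 25, 29 and 32 with TMM, 18, 14, 13 and 19 with library size alone and 16, 12, 10 and 14 with hepatocyte markers. Shares of all genes called were counted with TMM only. With hepatocyte markers the members' median turned to 0.0438, 0.142 and 0.0491 in the first 3, and the signs of Nags (0.263) and Otc (0.183) in WT females, of Nags (0.379), Otc (0.239) and Ass1 (0.0702) in Cyp2b-null females and of Ass1 in WT males (0.125) and Cyp2b-null males (0.0342) turned as well. Between the sexes on ND 6 members were called with this scale (4 lower and 2 higher in males), against 9 lower and 0 higher with TMM.

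DESeq2 (31, 25, 29 and 31), RLE factors (31, 25, 29 and 32), no low-count filter (31, 25, 31 and 32) and leaving out both libraries not labelled in those heat maps (32, 28, 29 and 30) kept the counts of diet calls within 1.5 times. Comparisons with 0 calls gave a few under other settings. Without the low-count filter there were 3 for genotype in ND-fed females, 1 in ND-fed males and 2 and 2 for diet by sex in WT and Cyp2b-null mice. For diet by sex in Cyp2b-null mice, DESeq2 gave 2 and library size 1. The cause was not tested. Leaving out each library in turn gave 23 to 32, 17 to 28, 26 to 31 and 28 to 33 diet calls, 0 to 1 and 0 to 1 for diet by sex in WT and Cyp2b-null mice, and 7 to 11 for the sexes on ND.

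Replicate numbers did not pair the libraries. Same-numbered libraries of different groups had a mean correlation of their deviations of 0.00328 in females and 0.0195 in males, with 2 and 3 of 24 pairs above 0.1. With the replicate block 31, 24, 29 and 33 members were called for diet, 0 for genotype and for the tests of differences, and 10 between the sexes. Gpt2 in WT females lost its call with the block (adjusted p = 0.0534) and Ass1 in Cyp2b-null females gained one (0.0444). A comparison of paralog protein sequences was not run. Bckdk, Sdsl and Acmsd had the lowest counts of the tested members in a library (22, 30 and 44), and Tat had the largest SE of a diet change (0.33 in WT females).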

Other observations

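Regulators of amino acid breakdown moved too. Of 15 listed regulators, all tested, 5, 6, 8 and 7 were called lower and 1, 1, 0 and 1 higher on CDAHFD in WT females, Cyp2b-null females, WT males and Cyp2b-null males, with TMM scaling. Of all genes tested with TMM, 10.2%, 13.9%, 15.0% and 17.1% were called lower and 13.9%, 16.9%, 18% and 20.3% higher. This list was also chosen with earlier results known, so the shares are a description and no test. Scaling to hepatocyte markers was an alternative chosen after seeing the data. With it, 0 regulators were called lower in any comparison (edgeR) and 6, 6, 4 and 3 higher. Their median log2 change went from -0.27, -0.46, -0.36 and -0.37 to 0.50, 0.17, 0.30 and 0.24, so every fall given here is relative to all genes under TMM. With that scale the median of all genes was 0.66, 0.69, 0.62 and 0.60, above that of the regulators in each comparison. Shares of all genes called were not counted there. Hnf4a, the nuclear receptor that maintains hepatocyte gene expression, and Nr3c1, the glucocorticoid receptor, were called lower in all 4 comparisons, with log2 changes of -0.58, -0.78, -0.74 and -0.39 for Hnf4a and -0.47, -0.80, -0.52 and -0.61 for Nr3c1. In WT females the largest falls were those of Klf15, a fasting-induced activator of amino acid breakdown, from 236 ± 51.3 CPM on ND to 107 ± 22.4 CPM on CDAHFD (log2 change -1.13, SE 0.17, adjusted p = 4.86e-05), Foxo1 (-0.79, SE 0.24, adjusted p = 0.0212) and Ppargc1a (-0.74, SE 0.25, adjusted p = 0.0353). Sirt5, a mitochondrial deacylase known to act on Cps1, was the only regulator called higher there (0.58, SE 0.21, adjusted p = 0.0485), and its value in WT males was -0.18 with no call. In WT males the largest falls were those of Onecut1 (-1.74, SE 0.64, adjusted p = 0.0426), whose libraries ranged widely, Hnf4a (-0.74, SE 0.12, adjusted p = 7.13e-05) and Sirt3 (-0.61, SE 0.16, adjusted p = 0.00600), and 0 regulators were called higher. Atf4 was called in none of the 4 comparisons (0.01, -0.11, -0.14 and -0.38).

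Periportal hepatocyte markers outside the module gave no single direction. Cyp2f2 had log2 changes of -0.39, -0.09, -0.86 and -0.94, with calls in all but Cyp2b-null females. Pck1 had -1.31, -1.02, -0.10 and 0.10, with calls in both genotypes of females, and Cdh1 was called higher in all 4 (1.05, 1.08, 0.83 and 1.15), and it is also made by bile duct cells. The 4 other genes of that list, Sds, Hal, Gls2 and Arg1, are members of the module. Of 7 pericentral markers, 3, 1, 0 and 2 were called lower and 0, 0, 3 and 1 higher. Lower were Oat (-0.81), Cyp1a2 (-0.77) and Slc1a2 (-0.55) in WT females, Slc1a2 (-0.61) in Cyp2b-null females, and Oat (-0.58) and Cyp2e1 (-0.43) in Cyp2b-null males. Higher were Glul (1.01), Axin2 (1.06) and Slc1a2 (0.43) in WT males and Glul (0.71) in Cyp2b-null males.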
